A study of Ovis aries with 32 samples.

Results

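Liver and muscle were sampled from the same 16 crossbred lambs, and 100 genes were selected on the correlation between the tissues, so that a lamb that was high in liver for the gene also tended to be high in muscle. Gene counts were scaled to 1000000 fragments on genes per library (CPM). Of 27054 annotated genes, 10298 stood at 1 CPM or higher in no fewer than 9 livers and no fewer than 9 muscles, once the 37 identifiers ENSOARG00000000001 to ENSOARG00000000037 were left out by the rule. For each of these genes the mean of log2(CPM + 1) of the diet group was subtracted within each tissue, and the liver and muscle residuals were correlated over the 16 lambs (Pearson r). The 100 genes with the highest r are the members described here, and r is therefore given as a description, with no test.

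The 4 groups were liver and muscle of 8 lambs fed a control diet (CTRL, lambs 1 to 8) and of 8 lambs fed that diet with a mixture of essential oils from cinnamon bark, dill seed and eucalyptus leaves (EO, lambs 9 to 16). Both diets carried the cyclodextrin matrix on which the oils were given. All animals were Appenninica and Sarda crosses, and their age was between 154 and 190 days by the labels. Males and females were used in both diets, but the labels do not give the sex of each lamb and none was inferred. Between 1460920 and 6689488 fragments fell on genes in a liver library and between 2572638 and 14035050 in a muscle library. Fragments that matched no annotated gene made up 23.6% to 48.6% of a liver library's unique alignments, against 27.2% to 30.5% in muscle (the share outside annotated genes), and 6 livers (CTRL lambs 2, 3, 6 and 8, EO lambs 14 and 16) were above 35%. The files name genes by Ensembl identifier only and no table that pairs those identifiers with symbols was used here. Members are therefore given by identifier, their functions and positions are not described, and liver and muscle could not be checked against their marker genes.

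As background, animals of an outbred population differ in transcript levels partly because they carry different regulatory alleles, deletions or extra copies of a gene, and such differences can be seen in more than one organ of the animal. Signals that reach all organs, such as hormones, nutrients, infection and the time of day, also shift genes in several organs together. A gene that is absent from both chromosomes gives no transcript in any tissue, whereas regulatory variation more often gives graded levels. In bulk tissue a lower level can come from fewer cells of one type or from less RNA per cell, and these cannot be told apart. Whether the differences described here are inherited was not tested, since no genotype or pedigree was analysed here.

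Among the members r ranged from 0.673 to 0.960, with a median of 0.728, beside a median of 0.102 over the 10298 genes. The rank correlation (Spearman rho), which extreme lambs move less, ranged from 0.206 to 0.921 over the members. Its median was 0.681, beside 0.0912 over all genes. The r of 16 members was at least 0.8. The value fell gradually at the end of the list. ENSOARG00000002841, ENSOARG00000020630 and ENSOARG00000020451, the last members, had r of 0.677, 0.676 and 0.673, and ENSOARG00000002758, ENSOARG00000018395 and ENSOARG00000008843, the first genes left out, had 0.673, 0.672 and 0.671.

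The muscle samples were then permuted at random among the lambs of each diet in 99 pairings, where a lamb could by chance keep its own muscle, and the list was rebuilt each time. The highest r of a shuffled list ranged from 0.721 to 0.927 (median 0.818), so that ENSOARG00000008077 and ENSOARG00000013250, with r of 0.960 and 0.934, were the 2 members above all of them. Rank 3, at 0.885, was level with the highest shuffled value of that rank, and from rank 4 on the real list lay inside the shuffled range. The r of rank 10 was 0.825 and was reached in 1 of the 99 pairings, that of rank 50 was 0.728 and was reached in 3, and that of rank 100 was 0.673 and was reached in 4 (range 0.504 to 0.741, median 0.573). Between 0 and 32 genes had r of at least 0.8 in a shuffled list, with a median of 1, and 16 or more were seen in 2 of the 99. Lists of 100 genes with r as high as in the real list below the first ranks were thus also obtained in a few shuffled pairings.

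**Figure D1:**
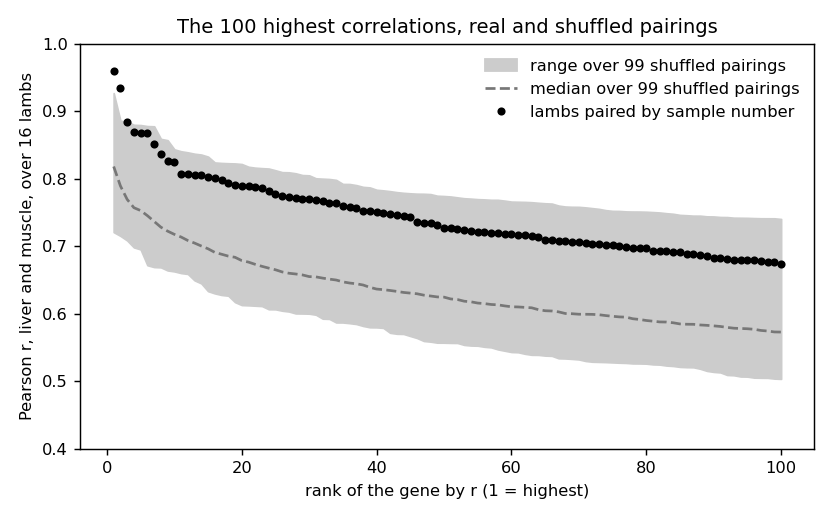
Pearson r between liver and muscle residuals of log2(CPM + 1) over 16 lambs (vertical axis, no unit) for the genes ranked 1 to 100 by r (horizontal axis). Black points are the real pairing of liver and muscle by lamb, the dashed line is the median and the grey band the range of the same ranks over 99 pairings shuffled within diet. The first 2 members, at 0.960 and 0.934, lie above the band, and rank 100, at 0.673, lies inside the range of 0.504 to 0.741.

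Genes were also chosen in the lambs of 1 diet and read in the lambs of the other, which the choice had not used. The 100 genes with the highest r in the 8 CTRL lambs had a median r of 0.868 there and of 0.127 in the 8 EO lambs, where the median over all genes was 0.0251. In EO, 63 of them had a positive r, against 52.6% of all genes, and 10 had r of at least 0.7, against 2.67%. The 100 genes chosen in the EO lambs had a median r of 0.864 there and of 0.325 in CTRL, where the median over all genes was 0.166. Here 83 were positive, against 66.1% of all genes, and 17 were at 0.7 or more, against 4.26%. Most genes chosen in 1 diet therefore had a much lower r in the other. Genes are not independent replicates, and these shares carry no test.

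Among the members themselves, r was at least 0.5 within both diets for 79, and at least 0.7 within both for 34. Over all genes these counts were 192 (1.86%) and 36 (0.35%), which the rule largely fixes because it used the same lambs. ENSOARG00000008077 had r of 0.968 in CTRL and 0.954 in EO, and ENSOARG00000013250 had 0.951 and 0.920. Each of these values includes lambs that were off or low for the gene, and no r was computed with all of those lambs left out. At the other end, ENSOARG00000015072 had r of 0.868 in CTRL and -0.621 in EO beside 0.703 over all lambs. It was named after its values were seen, as the member with the lowest r in EO.

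**Figure D2:**
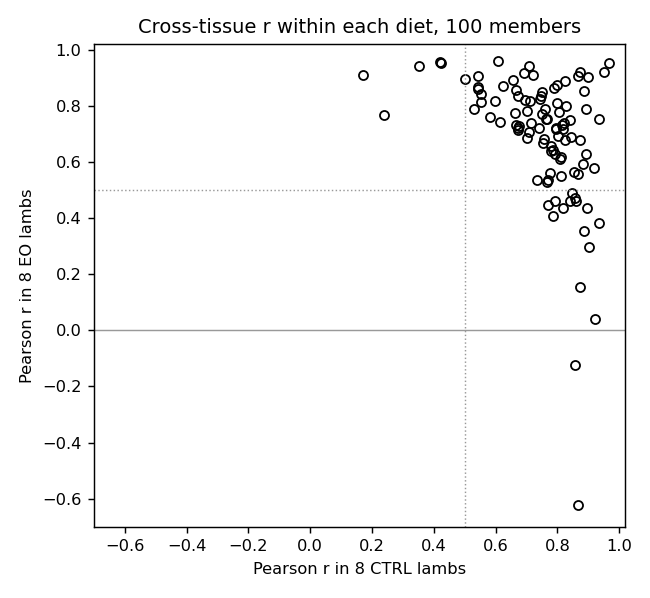
Pearson r between liver and muscle in the 8 CTRL lambs (horizontal axis) and in the 8 EO lambs (vertical axis) for each of the 100 members, shown as open circles; neither axis has a unit. Dotted lines mark 0.5, and 79 members lie above both; the lowest point, at -0.621 in EO, is ENSOARG00000015072.

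The size of the differences between lambs varied widely among members. The residual SD of log2(CPM + 1) had a median of 0.605 in liver and 0.467 in muscle over the members, beside 0.484 and 0.304 over all genes. The range from the lowest to the highest lamb had a median of 2.12 in liver and 1.51 in muscle, beside 1.69 and 1.11. A range of at least 2 in both tissues was seen in 32 members, against 485 (4.71%) of all genes, and a range of at least 4 in both in 3 members. A range under 1 in one or the other tissue was seen in 19 members. Over all genes the lower quartile of the muscle range was 0.836, so such small ranges were not particular to the members. No count over all genes stands beside the members with a range of at least 4 or under 1. These sizes come from the values that gave r and are not independent of the choice.

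A gene was called split when the widest gap between neighbouring lambs in the sorted log2(CPM + 1) values was at least 1 in both tissues, with at least 2 lambs on each side and the same lambs above it in liver and muscle. There were 3 split genes among the 10298 (0.0291%), ENSOARG00000008077, ENSOARG00000013250 and ENSOARG00000003341, and all were members. A gene was called on/off when at least 2 lambs were below 0.5 CPM in both tissues and every other lamb was at 1 CPM or more in both. There were 2 on/off genes (0.0194%), ENSOARG00000008077 and ENSOARG00000002980, again both members. In the 99 shuffled pairings no more than 1 split and no more than 1 on/off gene was found. When the other lambs only had to exceed 0.5 CPM, a choice made after seeing the data, 4 genes were on/off (0.0388%), adding the members ENSOARG00000002796 and ENSOARG00000002874, and again no shuffled pairing gave more than 1. In 8 members, against 18 of all genes (0.175%), the same lambs lay above the widest gap in both tissues, whatever its size. Each of these patterns asks for the same lambs in both tissues, which also raises r. That such genes were members was therefore largely fixed by the choice. The other members met neither definition, which asks for at least 2 lambs on each side, so that a member with a single lamb apart is not counted. With a gap of at least 1.5, ENSOARG00000008077 and ENSOARG00000003341 remained split and ENSOARG00000013250 did not.

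**Figure D3:**
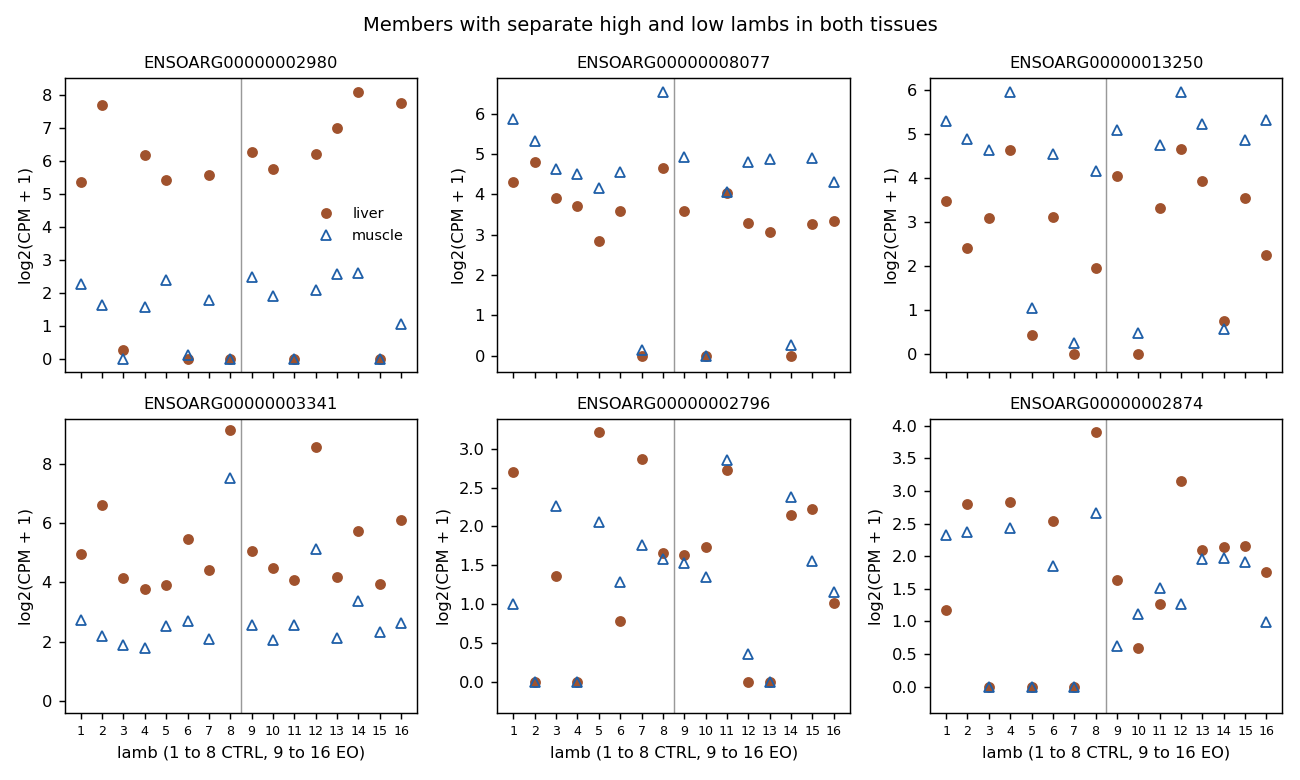
Log2(CPM + 1) in liver (brown circles) and muscle (blue triangles) of each lamb for 6 members, with lambs 1 to 8 on CTRL and 9 to 16 on EO, separated by a line. For ENSOARG00000002980, ENSOARG00000008077, ENSOARG00000002796 and ENSOARG00000002874 the lambs near 0 are the same in both tissues, for ENSOARG00000013250 lambs 5, 7, 10 and 14 are low, and for ENSOARG00000003341 lambs 8 and 12 are high.

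ENSOARG00000008077 had the highest r, 0.960. No fragment was counted in the livers of CTRL lamb 7, EO lamb 10 and EO lamb 14, which allows up to 0.650, 0.772 and 2.05 CPM (3 counts, counting error only). The muscles of those lambs held 1, 0 and 2 fragments, where 0 allows up to 1.17 CPM in lamb 10. In the other 13 lambs the level was between 6.22 and 26.9 CPM in liver, with at least 18 fragments, and between 15.5 and 92.4 CPM in muscle. The 3 lambs and the rest did not overlap in either tissue, and the muscle gap of 3.79 on the log2 scale was the widest of all 10298 genes. Both diets held lambs on each side, and the EO minus CTRL difference was -0.94 ± 0.66 (SE) in liver and -0.90 ± 0.68 in muscle. Leaving out any 1 lamb kept r between 0.936 and 0.978, and r without lambs 7 and 14, the farthest from the liver median, was 0.902. Lamb 10, also off, remained in that value. Among the CTRL lambs not off, lamb 5 was lowest in both tissues, at 6.22 and 16.9 CPM. Among the EO lambs not off, lamb 11 was highest in liver and lowest in muscle, at 15.5 CPM in both. Whether levels agreed among the lambs that were not off was not tested.

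ENSOARG00000013250 was low in 4 lambs, of which 3 were the lambs called off for ENSOARG00000008077. In CTRL lambs 5 and 7 and EO lambs 10 and 14 its level was 0.346, 0, 0 and 0.685 CPM in liver and 1.06, 0.184, 0.389 and 0.486 CPM in muscle. The other lambs lay between 2.86 and 24.4 CPM in liver and between 16.8 and 61.4 CPM in muscle. Again no lamb changed sides between the tissues, but the liver of lamb 14 held only 1 fragment. There even 0 counts would allow up to 2.05 CPM, and 1 fragment allows more. Its liver was therefore not clearly apart from the lowest other liver, CTRL lamb 8 at 2.86 CPM from 8 fragments. The gene whose pattern over the 32 residuals was most like that of ENSOARG00000008077 was ENSOARG00000013250 (r = 0.816), and the reverse held too, with r between them of 0.767 within liver and 0.866 within muscle. In lamb 5 they parted, since ENSOARG00000008077 stood at 6.22 CPM in liver and 16.9 CPM in muscle. According to the study only uniquely mapped reads were used, so fragments common to near-identical genes would be counted for neither. Without sequences it was not tested whether these genes are near-identical.

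ENSOARG00000002980 had the largest residual SD, 3.22, and the widest gap, 5.09 on the log2 scale, of the 10298 genes in liver. CTRL lambs 3, 6 and 8 and EO lambs 11 and 15 held 1, 0, 0, 0 and 0 fragments in liver and 0, 1, 0, 0 and 0 in muscle. The other 11 lambs had 39.9 to 270.4 CPM in liver, with 120 to 635 fragments. In muscle the same 11 lambs had only 1.07 to 5.06 CPM, from 7 to 52 fragments, whereas 0 counts allowed up to 0.278, 0.284, 0.931 and 0.214 CPM in lambs 3, 8, 11 and 15. The tissues thus agreed on which lambs were called off, while the level of the transcript was 5.55 ± 0.78 (SE) higher in liver on the log2 scale (adjusted p = 7.68e-08, edgeR without the lamb as a block). For this gene r was 0.868, with the lambs called off included. Of the 11 others, EO lamb 14 was highest in both tissues, at 270.4 and 5.06 CPM. EO lamb 16 was next in liver, at 215.5 CPM, but lowest in muscle, at 1.07 CPM.

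ENSOARG00000003341 showed the opposite shape, with few high lambs. CTRL lamb 8 stood at 563 CPM in liver and 185 CPM in muscle, and EO lamb 12 at 376 and 34.3 CPM. In the other lambs the level was between 12.7 and 97.8 CPM in liver and between 2.46 and 9.33 CPM in muscle. Without lambs 8 and 12, r fell from 0.868 to 0.473. Lamb 8 was also the highest for ENSOARG00000000888, at 141 CPM in liver and 13.5 CPM in muscle, against at most 58.2 and 3.60 CPM in the others. These were the closest members in pattern to each other, with r = 0.827 over the 32 residuals. ENSOARG00000000888 was closer still to ENSOARG00000013421 (r = 0.900) and ENSOARG00000020495 (r = 0.858), which were not members. The liver of lamb 8 had the highest share outside annotated genes, 48.6%, while its muscle was at 30.1%.

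The members that met only the looser on/off definition were expressed at low levels. ENSOARG00000002796 held no fragment in liver of CTRL lambs 2 and 4 and EO lambs 12 and 13 and 0, 0, 2 and 0 fragments in their muscles, whereas other lambs ranged from 0.723 to 8.29 CPM in liver and from 1.01 to 6.21 CPM in muscle. In liver, 0 counts allowed up to 0.998, 0.448, 1.24 and 1.23 CPM in lambs 2, 4, 12 and 13. Lambs 2, 12 and 13 were therefore not clearly apart from the lowest other liver. For ENSOARG00000002874 no fragment was counted in either tissue of CTRL lambs 3, 5 and 7, and the others had 0.515 to 14.0 CPM in liver and 0.538 to 5.30 CPM in muscle. In lambs 3, 5 and 7, 0 counts allowed up to 0.589, 1.04 and 0.650 CPM in liver and 0.278, 0.794 and 0.276 CPM in muscle. All of these limits in liver, and that of lamb 5 in muscle, exceeded the lowest of the others. In the lowest other lambs of ENSOARG00000002874 a call rested on very few fragments, with 2 in the liver of EO lamb 10 and 2 in the muscle of EO lamb 9. Its r was 0.903 in CTRL, which held all 3 lambs with no fragment of it, and 0.298 in EO.

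The lambs called off were not the same from gene to gene. ENSOARG00000008077 was off in lambs 7, 10 and 14, ENSOARG00000002980 in 3, 6, 8, 11 and 15, ENSOARG00000002796 in 2, 4, 12 and 13, and ENSOARG00000002874 in 3, 5 and 7. Between ENSOARG00000008077 and ENSOARG00000002980, r was -0.311 in liver and -0.280 in muscle. Over all 4950 pairs of members the median r was 0.0430, 189 pairs (3.82%) were at 0.7 or more and 4 were below -0.7. No value for pairs of other genes stands beside these. The members therefore did not order the lambs in 1 common way.

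Of the remaining 6 members among the 10 with the highest r, 4 had graded levels and the other two had 1 low lamb in both tissues. ENSOARG00000013049 had the smallest spread, with 6.45, 19.3 and 25.7 CPM as the lowest, median and highest liver and 13.4, 17.1 and 20.5 CPM in muscle. Its lowest livers, CTRL lambs 2 and 8 and EO lambs 14 and 16, were 4 of the 6 with a share outside annotated genes above 35%, and its r of 0.885 fell to 0.449 once liver residuals were adjusted for that share. For ENSOARG00000007389 the liver values were 6.08, 14.5 and 25.3 CPM and the muscle values 3.41, 10.9 and 26.7 CPM. Its r of 0.869 was 0.871 after the adjustment, 0.898 in CTRL and 0.901 in EO, all from the values that chose it. CTRL lamb 3 was highest in both tissues for this gene.

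ENSOARG00000015695 ranged from 0.685 to 16.6 CPM in liver, with a median of 7.00, and from 6.03 to 53.4 CPM in muscle, with a median of 28.6. EO lamb 14 was lowest in both, although its liver value was a single fragment, and r was 0.851 with it and 0.781 without it. ENSOARG00000017262 ranged from 2.34 to 14.8 CPM in liver and from 3.1 to 11.8 CPM in muscle, with r of 0.826. EO lamb 11 was lowest in both tissues for this gene, and r was 0.746 without it.

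A single lamb carried much of r in the other cases. ENSOARG00000015485 stood at 0.409 CPM in liver and 0.620 CPM in muscle of EO lamb 13, from 1 and 3 fragments. The other lambs were between 2.00 and 22.1 CPM and between 2.56 and 10.1 CPM, and r fell from 0.837 to 0.697 without lamb 13. ENSOARG00000009552 stood at 2.06 and 2.33 CPM in EO lamb 10, against 5.89 to 18.0 CPM and 9.00 to 32.9 CPM in the others. Its r of 0.825 was 0.526 without that lamb, and 0.424 in CTRL beside 0.954 in EO. The member most like it, ENSOARG00000002875 (r = 0.785 over the 32 residuals), was also the member whose r fell lowest without 1 lamb, from 0.698 to 0.329 without lamb 10.

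**Figure D4:**
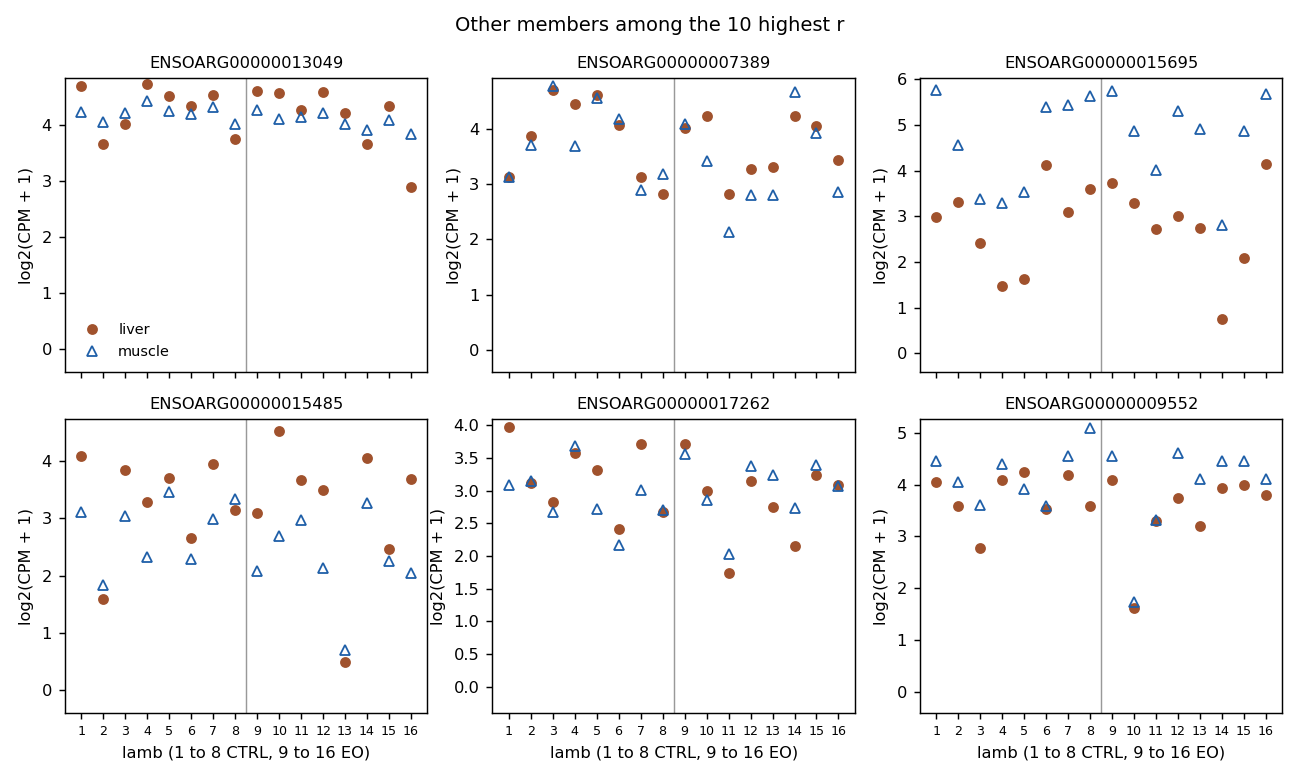
Log2(CPM + 1) in liver (brown circles) and muscle (blue triangles) of each lamb for the other 6 of the 10 members with the highest r, with CTRL lambs 1 to 8 left and EO lambs 9 to 16 right of the line. Levels are graded, except that EO lamb 13 is low in both tissues for ENSOARG00000015485 and EO lamb 10 for ENSOARG00000009552.

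Large graded ranges in both tissues were seen in ENSOARG00000000984 and ENSOARG00000001181. The former ranged from 2.15 to 54.6 CPM in liver and from 0.189 to 17.5 CPM in muscle, lowest in CTRL lamb 8 in both (r = 0.789). The latter ranged from 0.468 to 20.9 CPM in liver and from 0.931 to 33.2 CPM in muscle, lowest in EO lamb 11 in both (r = 0.770). Neither met the split definition.

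Whichever lamb was left out, r stayed at 0.5 or more for 95 members and at 0.6 or more for 71. CTRL lamb 8, the youngest at 154 days, was the lowest lamb in both tissues for 14 members and the highest in both for 9, and it was the lamb whose removal lowered r most for 32. EO lamb 16 was the lowest lamb in both tissues for 10 members. The livers of these lambs also had high shares outside annotated genes, 48.6% in lamb 8 and 42.9% in lamb 16. In lamb 8, age and this share cannot be told apart. No count over all genes stands beside these counts of members. Without lamb 8, ENSOARG00000000888 fell from r of 0.774 to 0.473.

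The liver share outside annotated genes moved with many members. In edgeR fits with diet and this share as terms, 57 members passed an adjusted p of 0.05 in liver, 22 rising and 35 falling with the share, where 63.0% of the 11570 liver genes passed (31.0% rising, 32.0% falling). The count among the members was thus near that of all genes. The slope was -0.128 ± 0.0156 (SE) per percentage point on the log2 scale for ENSOARG00000000903, the member with the smallest adjusted p (7.31e-07), and 0.126 ± 0.0456 for ENSOARG00000003341 (adjusted p = 0.0207). For ENSOARG00000008077 and ENSOARG00000013250 the slopes of 0.0464 ± 0.0311 and -0.0347 ± 0.0454 did not pass (adjusted p = 0.199 and 0.519). After liver residuals were adjusted for the share, r had a median of 0.687 over the members and 0.0287 over all genes, 85 were at 0.5 or more and 55 at or above the value of rank 100. Within the 10 lambs below 35%, a division chosen after seeing the data, the median was 0.676 (-0.0389 over all genes) and 76 members were at 0.5 or more, and within the other 6 lambs the median was 0.802 (0.0451 over all genes). The rule had used the values of all these lambs, and these medians are a description. ENSOARG00000019060, named after its values were seen as the lowest of them, had r of 0.771 over all lambs and -0.443 in those 10. Within the 10 lambs the split genes were ENSOARG00000008077, ENSOARG00000013250 and ENSOARG00000002980, and the on/off genes were ENSOARG00000008077, ENSOARG00000002980 and ENSOARG00000002796. All of them were members, which the choice by r favours. ENSOARG00000003341 was not split there, where lamb 8, one of its high lambs, is missing.

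**Figure D5:**
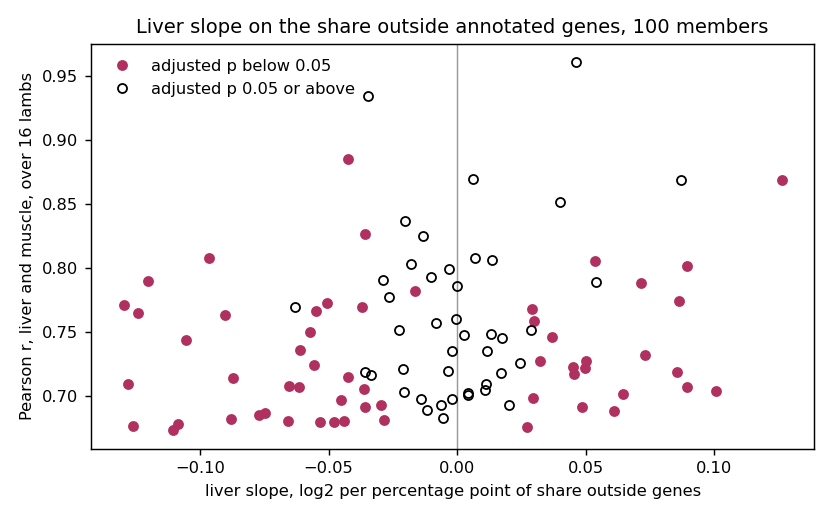
Liver slope on the share of fragments outside annotated genes (horizontal axis, log2 per percentage point) against Pearson r between liver and muscle (vertical axis) for each of the 100 members. Filled points have an adjusted p below 0.05 (57 members, 22 with a positive and 35 with a negative slope) and open points do not; ENSOARG00000008077 and ENSOARG00000013250, the highest points, are open.

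Diet was tested because its mean had been subtracted before the members were chosen. No member differed between EO and CTRL at an adjusted p of 0.05 by edgeR, where none of the 11570 liver genes (0.0%) and none of the 11757 muscle genes (0.0%) did, and DESeq2 also found 0. Males and females were pooled in these fits, because the labels do not give sex. Diet differences of opposite sign in the sexes could therefore cancel. The paper fitted diet, sex and their interaction, and reported interaction genes in both tissues. At an unadjusted p of 0.05, 2 members passed in liver, ENSOARG00000003653 (0.44 ± 0.20 SE) and ENSOARG00000025592 (-0.51 ± 0.24), among 271 genes (2.34%). In muscle ENSOARG00000019620 (-0.42 ± 0.17) and ENSOARG00000018383 (-0.66 ± 0.29) passed, among 402 genes (3.42%). These were named after their values were seen, as all that met this limit. By DESeq2 3 members had an unadjusted p under 0.05 in each tissue, where 2.92% of liver and 3.54% of muscle genes did. The median absolute difference was 0.225 in liver and 0.148 in muscle over the members, beside 0.158 and 0.0992 over all genes.

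Age is a property of the lamb that the rule did not use. No member had a slope on age at an adjusted p of 0.05 by edgeR, nor did any other gene in liver or muscle (0.0%). An unadjusted p under 0.05 was seen in 723 liver genes (6.25%) and 1895 muscle genes (16.1%), among them 11 and 17 members. Of these members 9 passed in both tissues, which the choice by r favours, and no such count over all genes was made. ENSOARG00000000888 was among the genes that shared the smallest adjusted p in muscle, with -0.0724 ± 0.0132 (SE) per day on the log2 scale (adjusted p = 0.0890), and its liver slope was -0.0785 ± 0.0147 (adjusted p = 0.242). DESeq2 called that gene in both tissues (adjusted p = 0.00306 and 0.00988), as the only member among 14 genes in liver (0.121%) and as 1 of 5 among 174 genes in muscle (1.48%). The others in muscle were ENSOARG00000011769, ENSOARG00000020630 and ENSOARG00000007573, which fell with age, and ENSOARG00000019197, which rose. The highest lamb for ENSOARG00000000888, CTRL lamb 8, was the youngest, and without it the slope was -0.0586 ± 0.0210 in liver and -0.0285 ± 0.0181 in muscle (edgeR adjusted p = 0.9999 and 0.840).

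The mean level in each tissue had also been subtracted, and it was compared over all 32 samples. The main edgeR fit ignored that a liver and a muscle came from 1 lamb. In that fit 69 members differed between liver and muscle at an adjusted p of 0.05, 44 higher and 25 lower in liver, where 75.7% of the 10307 genes kept in both tissues passed (38.6% higher, 37.1% lower). With the lamb as a block these were 76 members, 48 higher and 28 lower, where 75.0% of the genes passed. Without the block, ENSOARG00000015695 was lower in liver, with a log2 difference of -1.59 ± 0.34 (SE, adjusted p = 6.92e-05), and ENSOARG00000015485 was 1.32 ± 0.29 higher (adjusted p = 0.000105). ENSOARG00000008077 passed only with the block, at -0.87 ± 0.50 (adjusted p = 0.114) without it and -0.82 ± 0.15 (adjusted p = 5.11e-05) with it. The same was true of ENSOARG00000007389 (adjusted p = 0.0547 and 9.73e-05), ENSOARG00000002874 (0.0712 and 0.00225) and ENSOARG00000002796 (0.122 and 0.0235). ENSOARG00000009552 did not pass in either fit, with -0.13 ± 0.21 and -0.10 ± 0.12 (adjusted p = 0.582 and 0.465). Shared patterns over lambs were thus seen in genes at similar levels in the tissues and in genes far apart, as in ENSOARG00000002980.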

How the data were processed

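According to the study's methods, poly-A RNA of liver and muscle was sequenced as read pairs. The authors trimmed reads with Trimmomatic 0.33, aligned them with STAR 2.4.0.1 to Ovis aries v.3.1, and deposited 1 table of raw counts per sample made with HTSeq 0.6.1, without normalization. Each table holds 27054 Ensembl genes and 5 counters, which were left out of library sizes. The counting strand is not given in the sources used here. The deposited counts were used as they stand.

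Here CPM was computed on gene counts, and log2(CPM + 1) was used for r. Members, definitions and gene lists were chosen with earlier results of these data known. The 10 members with the highest r, all split or on/off members, the 6 with the largest range in the tissue where it was smaller and the 3 genes on each side of the list's end were named, others as stated. Lists and marker genes planned by symbol were not run, since 0 of the identifiers matched the gene table supplied.

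Diet, age, the share outside annotated genes and tissue were tested with edgeR 4.0.16 in R 4.3.3 (TMM, glmQLFit, glmQLFTest, Benjamini-Hochberg over all genes kept), and SE is the absolute log2 change divided by the square root of F. DESeq2 1.42.0, other filters, scalings and pseudocounts, and leaving out each lamb were alternatives. Correlations were run in Python 3.11.15. The edgeR fits without a block and the ranking by r were tested on simulated data.

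A liver and a muscle of equal sample number were treated as 1 lamb, because their labels agreed in diet and age for every number. Over genes, the liver and muscle residuals of a number correlated with r from -0.247 to 0.431 (median 0.0923), 7 of 16 exceeded 0.1, and 4 livers correlated best with the muscle of their own number. Intervals from 0 counts cover counting error only, at 3 counts per library, which was 0.448 to 2.05 CPM in liver and 0.214 to 1.17 CPM in muscle.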

Additional observations from a re-analysis of the deposited data

Results flagged for a closer look

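Within each group of 8 samples, the gap between the most extreme lamb and its neighbour was compared with the group's range by Dixon's criterion on log2(CPM + 1) for 18 members, in 72 groups, where chance flags about 1 in 20 groups. These members were chosen by values that extreme lambs raise, so the number of flags tests nothing. There were 8 flags in 4 members. For ENSOARG00000008077, CTRL lamb 7 stood apart at 0 CPM in liver (next lamb 6.22) and 0.0920 CPM in muscle (next 16.9). For ENSOARG00000003341, CTRL lamb 8 stood apart in muscle at 184.8 CPM (next 5.62), and EO lamb 12 in liver at 376.3 CPM (next 68.2) and in muscle at 34.3 CPM (next 9.33). EO lamb 10 stood apart for ENSOARG00000009552, at 2.06 CPM in liver (next 8.18) and 2.33 CPM in muscle (next 9.00). For ENSOARG00000000888, CTRL lamb 8 stood apart in muscle at 13.5 CPM (next 3.60). A lamb that was extreme in one tissue was in 3 of these members extreme in the other too, which the choice by r favours.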

How the results depend on the processing

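Of the 100 members, 57 stayed among the 100 highest r at 5 CPM or more in 9 samples, 50 with no filter beyond a count in 2 samples of each tissue and 56 after adjusting the liver for the share outside annotated genes. In the lambs below and above 35% of that share, divisions added after seeing the data, 35 and 12 did, and without each lamb 68 to 91 did. A gap of 1.5 left 2 split genes and ended the call of ENSOARG00000013250. A gap of 0.7, or a pseudocount of 0.5 CPM, gave 5 split genes, adding ENSOARG00000002980 and, respectively, ENSOARG00000015072 or ENSOARG00000002874. All were members, which the choice by r favours. With every other lamb above 0.5 CPM, 4 on/off genes were found, and 11 with no filter, of which 2 were members, both added after seeing the data. For age, DESeq2 called 14 genes and 1 member in liver and 174 genes and 5 members in muscle, and edgeR called 1 gene in muscle with no filter. Without each lamb, the age slope in muscle was called for 0 to 68 genes and 0 to 3 members. The 68 genes came without CTRL lamb 2, and without EO lamb 10 there were 5 genes and 1 member. Without a filter 12673 genes differed between liver and muscle. The remaining 254 comparisons of counts, the block by lamb among them with 7732 genes and 76 members between tissues, stayed within a factor of 1.5. Low liver depth, at 1460920 fragments in EO lamb 14, limited calls near 1 CPM.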

Other observations

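The filter of 1 CPM in 9 of 16 lambs removes any gene that is off in 8 or more lambs, and on/off genes were therefore also counted without it, a step added after seeing the data. Among 15896 genes with a count in at least 2 samples of each tissue, 11 were on/off in the same lambs of both tissues, and 9 of these were not members. The 9 were off in 8 to 13 lambs. ENSOARG00000006821 was on in CTRL lamb 7 and EO lambs 13 and 16 only, reaching 24.8 CPM in liver and 44.8 CPM in muscle (r = 0.996). ENSOARG00000009308 was on in 6 lambs, 4, 8, 9, 12, 13 and 16, reaching 38.02 and 10.9 CPM (r = 0.991), and ENSOARG00000019479 was on in lambs 2, 8, 9, 12, 13 and 15, reaching 17.3 and 21.8 CPM (r = 0.982). ENSOARG00000005938, ENSOARG00000009497 and ENSOARG00000015641 were on in 4 lambs each. These genes were named after their values were seen.

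ENSOARG00000023683, ENSOARG00000024320 and ENSOARG00000025367 were on in the same 8 lambs, CTRL 3, 4, 5 and 7 and EO 9, 11, 12 and 15, with highest levels of 76.0, 77.1 and 209 CPM in liver and 16.5, 26.6 and 103.6 CPM in muscle. They were the only on/off genes of the 11 that had an identical set of lambs. Each diet held 4 males and 4 females, but the labels do not say which lambs these were, so whether the 3 genes follow sex was not tested. No group was formed from these values.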
